A study of Arabidopsis thaliana with 51 samples.

Results

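The rising set holds 502 array features whose mean level did not fall at any step from pistil to silique and was at least 2 log2 higher at the end than at the start. It was selected on the pistil arrays labelled 1DBP and 1DPP and the silique arrays labelled 3DPP and 8DPP, taken in that order, and only features with 2 or more values in each of the 4 groups could enter. Of the 27600 features on the array 20292 were measured in all 4 groups, so the set makes up 2.47% of those. The mirrored rule, with a mean that never rises and ends at least 2 log2 lower, held for 421 features, or 2.07%. The rule leaves out PYK10, which otherwise met it, and GRX480, which did not. Only 38 members carry the name of a single gene, and they stand for 36 genes. The other 464 are described by counts and medians, because 449 are in no row of the annotation used here, 12 list several genes and 3 rest on a genomic clone.

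The 51 two-colour arrays of the series survey organs of Arabidopsis thaliana, a small flowering plant of the cabbage family. Cultured cells served as the common partner of 17 organ groups on 45 arrays, and 6 arrays paired the light and dark forms of 1 organ directly. All RNA was total RNA. The rule uses 12 arrays, 2 of pistil 1DBP, 4 of pistil 1DPP, 3 of silique 3DPP and 3 of silique 8DPP. The tests below use 3 arrays each of germinating seed, dark cotyledon, rosette leaf, cauline leaf, stem, petal and stamen, 2 each of dark hypocotyl, dark root and sepal, and 2 each of the direct light against dark arrays of cotyledon and root. The labels give the organ, the light condition and the reference, but no genotype, plant age or growth condition, and the stage codes are used as they stand. They do not say whether arrays of a group came from separate plants, so p-values measure the spread between arrays, which may be technical. The direction of the ratios, organ over cultured cells and light over dark, is only likely: its basis is that photosynthesis genes then come out higher in light cotyledons. Across features, the direct arrays correlated with the difference between the light and dark arrays against cultured cells at r = 0.60 in cotyledon (24591 features), 0.55 in root (22479) and -0.16 in hypocotyl (13543). On the direct hypocotyl arrays PSAN read -1.91 and -1.91 and LHCB4.1 -1.58 and -1.46, against the sign in cotyledon, so those 2 arrays have no settled direction and entered no comparison. Replicate 3 of silique 8DPP held 7410 values against 19267 to 26657 on the other arrays, so 364 members have 2 values at 8DPP and 138 have 3. Precision is limited by how many arrays a group has.

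A pistil is the female organ of the flower. After pollination its ovary grows into the silique, the pod in which ovules become seeds, while the ovary wall expands, stays green for a time and later lays down lignified layers that let the pod open. Growth of this kind involves wall-loosening proteins such as expansins, class III peroxidases, which are secreted haem enzymes that can cross-link or loosen walls and produce reactive oxygen, and the light-harvesting apparatus of a photosynthetic fruit wall. Maturing seeds also make dehydrins and late embryogenesis proteins, which protect cells against loss of water.

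Levels are log2 ratios to cultured cells, with the median of each array set to 0. The median difference between 8DPP and 1DBP over the members was 2.69 log2, with quartiles of 2.28 and 3.35 and a largest value of 7.01, against a median of -0.03 over all features measured in the 4 groups. These values follow from the rule and carry no test. Most of the difference lay in the last step: its median was 1.55, against 0.51 from 1DBP to 1DPP and 0.53 from 1DPP to 3DPP. The last step was the largest for 358 members, the first for 68 and the middle one for 76, and 313 members gained more in the last step than in the others together. Only 7 members were at least 2-fold higher at every step.

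Relative to cultured cells, most members began low. The median level was -1.50 at 1DBP, -0.98 at 1DPP, -0.43 at 3DPP and 1.20 at 8DPP. At 1DBP 428 members lay below the array median and at 8DPP 147 still did, 281 crossed from below to above, and 74 were above it in all 4 groups. The median of the members was -1.79 and -1.37 on the 1DBP arrays, between -1.26 and -1.01 on the 1DPP arrays, between -0.61 and -0.42 on the 3DPP arrays and between 0.81 and 0.94 on the 8DPP arrays, so no array of one group reached into the next. For single members the arrays overlapped more often. Every 8DPP array lay above both 1DBP arrays for 481 members, against 26.1% of all features measured, and every 8DPP array above every 3DPP array for 325, against 20.4%. The 1DPP arrays lay wholly above the 1DBP arrays for 157, against 9.80%, and the 3DPP arrays wholly above the 1DPP arrays for 139, against 15.6%. The rule used these contrasts, and nothing is read from the counts. In whole organs, more cells that hold a transcript and more RNA per cell cannot be told apart.

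**Figure D1:**
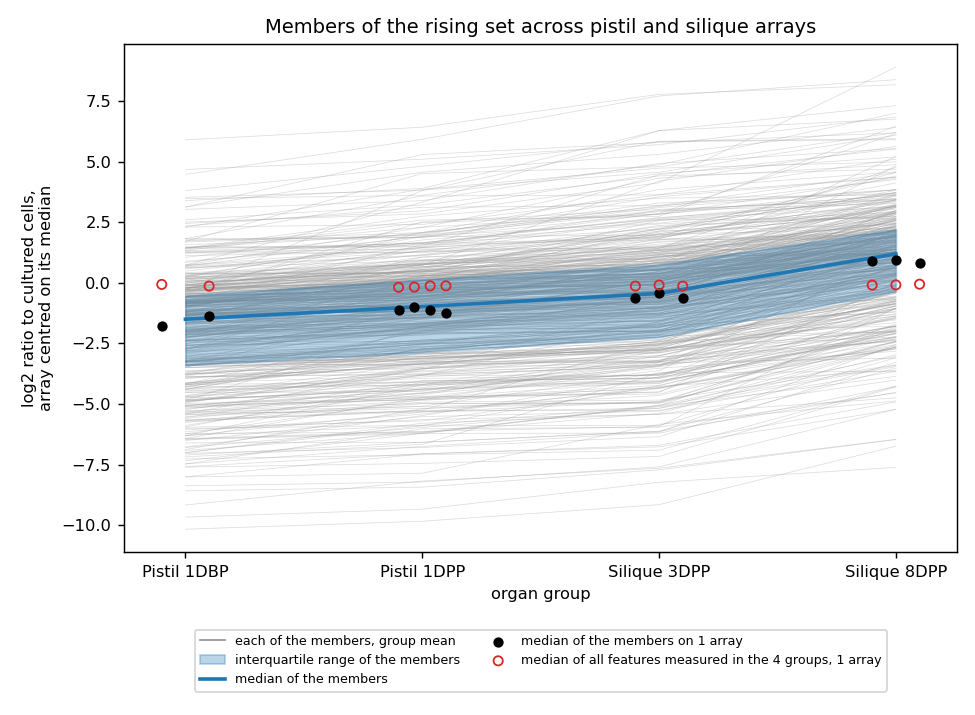
Levels of the 502 members in the 4 groups that chose them (horizontal axis), as log2 ratio to cultured cells centred on the array median (vertical axis). Grey lines are group means of single members, the blue line and band their median and interquartile range, black points the median of the members on each array and red circles the median of all features measured in the 4 groups; the members' median runs from -1.50 at 1DBP to 1.20 at 8DPP, with its longest step between 3DPP and 8DPP.

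The threshold cuts through a continuous distribution. The named members nearest to it were the 2 probes of PRXR1, at 2.01 and 2.02, and AT3G43540 at 2.02. The nearest outside it were AT1G04990 at 1.94 and AT5G45350 and AT2G38255 at 1.89. In all, 47 members lay within 0.1 above the threshold and 46 features that otherwise met the rule within 0.1 below. A difference of 2 log2 or more, without the condition on the steps, was found for 1555 features, of which 1052 fell at some step. Membership also depended on the arrays. Without replicate 1 of silique 8DPP 167 features met the rule and without replicate 2 165 did, since the sparse replicate 3 must then supply a value, and 136 members were kept in each case. Without centring of the arrays 772 features met the rule, 310 of them members.

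Of the 21 class III peroxidase genes measured in all 4 groups 6 belonged to the set, where 2.52% of all named features measured did. This family was looked at after its values had been seen, and other families were not counted. Its measured members had a median difference of 1.13 log2 between 8DPP and 1DBP. Of the 21 genes 7 were lower at 8DPP than at 1DBP, from AT3G49960 at -0.09 to AT5G40150 at -1.80 and AT1G71695 at -3.47.

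AT2G38380 stood at -5.38 and -4.37 on the 1DBP arrays, at -4.17, -4.20, -4.34 and -4.28 on the 1DPP arrays, at -3.15, -3.63 and -3.34 on the 3DPP arrays and at 0.13, -2.01 and -2.53 on the 8DPP arrays. No array of one group overlapped the next, but the first 8DPP array lay apart from the others. AT5G64100 stood at -5.49 and -4.37 at 1DBP, at -3.32, -3.38, -4.0 and -3.45 at 1DPP, at -3.16, -3.04 and -3.00 at 3DPP and at -2.20 and -1.97 at 8DPP. It too was separate at every step. Its level in dark root was 4.45 ± 0.17 (SD, n = 2), above every pistil and silique array.

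AT4G37520 made most of its difference of 3.53 log2 in 1 step. It stood at -7.02 and -7.35 at 1DBP, at -6.56, -7.10, -6.55 and -6.46 at 1DPP, at -3.68, -3.70 and -3.77 at 3DPP and at -3.58 and -3.73 at 8DPP. The step to 3DPP was 2.95 log2, while the 1DPP values overlapped those at 1DBP and the 8DPP values those at 3DPP. Another probe of the gene followed the same course with a difference of 3.06, and stayed out of the set because its 8DPP mean of -4.03 lay just under its 3DPP mean of -4.01.

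Both probes of AT2G37130 made most of their difference between 1DBP and 1DPP. AT2G37130 probe 2 stood at -5.14 and -3.20 at 1DBP, at -1.72, -2.06, -1.74 and -2.29 at 1DPP, at -1.78, -1.88 and -1.72 at 3DPP and at -1.06 and -1.31 at 8DPP. All later arrays lay above both 1DBP arrays, which lay farther apart from each other than the arrays of any later group. AT2G37130 probe 1 had its first step at 1.69, from -4.40 ± 0.00 (SD, n = 2) to -2.72 ± 0.70 (n = 4), and a whole difference of 2.38.

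PRXR1 had 2 probes in the set, with the same course. PRXR1 probe 2 went from 1.82 ± 0.51 (SD, n = 2) at 1DBP and 1.88 ± 0.28 (n = 4) at 1DPP to 3.12 ± 0.24 (n = 3) at 3DPP and 3.85 ± 0.20 (n = 3) at 8DPP. PRXR1 probe 1 followed with steps of 0.03, 1.52 and 0.47. The sixth gene, AT5G14130, is less certain: its 1DPP values were 0.66, 3.26 and 0.81, and its other probe differed by 0.41 between 8DPP and 1DBP.

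The other named members with the largest differences have varied roles, and the largest difference of all, 7.01 log2, belongs to a member with no gene name. EXLA1, an expansin-like wall protein, stood at -3.23 and -2.26 at 1DBP, at -0.76, -0.86, -0.84 and -1.0 at 1DPP, at -0.04, -0.12 and 0.11 at 3DPP and at 1.43 and 1.35 at 8DPP. COR47, a dehydrin known for its induction by cold and drought, stood at -2.84 and -2.77 at 1DBP, at -1.47, -1.40, -1.04 and -1.34 at 1DPP, at -0.90, -0.75 and -0.93 at 3DPP and at 0.76 and 0.65 at 8DPP. In both genes each group lay wholly above the one before, which among the 38 named probes held besides for AT2G38380, AT5G43450 and AT5G64100 alone. The rule favours such separation, whose share over all features was not counted, and nothing is read from it. AT5G43450, a 2-oxoglutarate-dependent oxygenase, stood at -5.60 and -5.30 at 1DBP, at -4.83, -4.80, -4.74 and -5.03 at 1DPP, at -4.10, -4.51 and -4.36 at 3DPP and at -2.45 and -2.64 at 8DPP.

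AT4G38540, a flavin-binding oxidoreductase, had the largest difference of any named member, 5.75 log2. It stood at -5.33 and -4.09 at 1DBP, at -3.07, -3.45, -4.11 and -4.47 at 1DPP, at -4.28, -2.20 and -3.89 at 3DPP and at 0.51 and 1.56 at 8DPP. The first 3 groups overlapped, and the 8DPP arrays stood apart. A second probe of the gene differed by only 0.25 between 8DPP and 1DBP, so the probes disagree. AT1G60730, an aldo-keto reductase, also made most of its difference in the last step. It stood at -6.38 and -6.25 at 1DBP, at -5.39, -5.75, -5.51 and -4.68 at 1DPP, at -5.12, -4.13 and -5.43 at 3DPP and at -1.68 and -2.17 at 8DPP, with overlap between 1DPP and 3DPP alone.

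TET3, a tetraspanin of the cell membrane, stood at 0.53 and 0.44 at 1DBP, at 1.32, 1.38, 2.09 and 1.75 at 1DPP, at 2.12, 2.48 and 2.08 at 3DPP and at 3.79 and 3.69 at 8DPP. Only 1 of the 1DPP arrays reached into the 3DPP range, and the 8DPP arrays lay above all others.

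**Figure D2:**
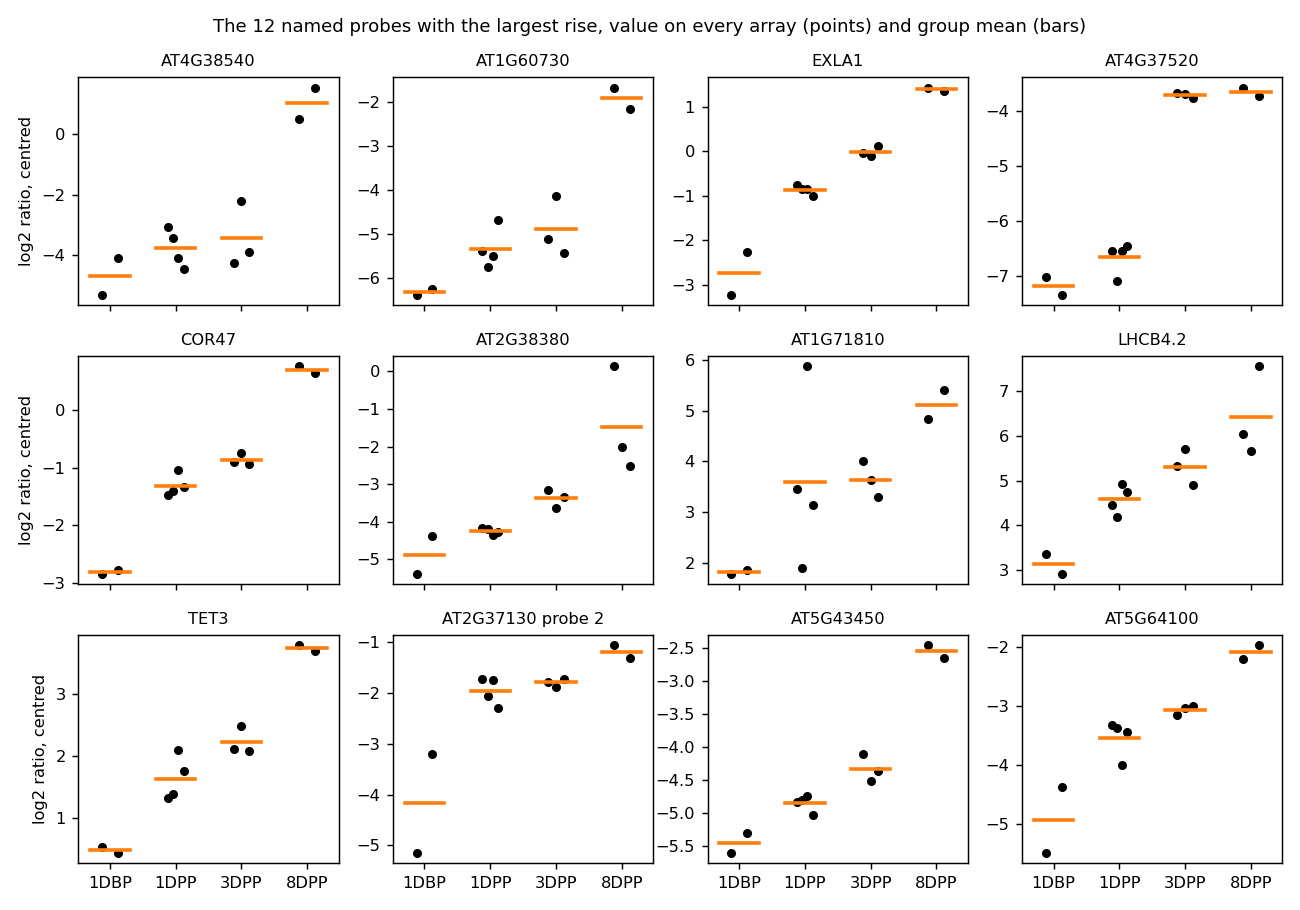
The 12 named probes with the largest difference, with the log2 ratio to cultured cells (centred on the array median, vertical axis, scaled for each panel) on every array of the 4 groups (horizontal axis). Points are arrays and orange bars group means; EXLA1, COR47, AT2G38380, AT5G43450 and AT5G64100 climb with no overlap between neighbouring groups, AT4G37520 jumps between 1DPP and 3DPP, and AT4G38540 and AT1G60730 jump between 3DPP and 8DPP.

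Genes of the chloroplast among the named members included LHCB4.1, LHCB4.2, PSAN and AT1G71810, an ABC1-type kinase of plastoglobules. LHCB4.2, which encodes the minor antenna protein CP29 of photosystem II, stood at 3.36 and 2.91 at 1DBP, at 4.45, 4.19, 4.92 and 4.74 at 1DPP, at 5.32, 5.71 and 4.91 at 3DPP and at 6.05, 5.66 and 7.56 at 8DPP. LHCB4.1, for another form of CP29, went from 0.58 ± 0.37 (SD, n = 2) at 1DBP and 1.46 ± 0.33 (n = 4) at 1DPP to 2.61 ± 0.10 (n = 3) at 3DPP and 2.67 ± 0.12 (n = 2) at 8DPP, and its other probe differed by 1.87 over the course. PSAN, a subunit of photosystem I, stood at 3.82 ± 0.16, 4.82 ± 0.13, 5.84 ± 0.49 and 5.92 ± 1.01 in the same groups. LHCB4.1 and PSAN had last steps of 0.07 each, although the 8DPP values of PSAN, 6.63 and 5.20, lay to either side of its 3DPP range. LHCB4.2 had a last step of 1.11, but its 8DPP arrays overlapped those at 3DPP. Its value of 7.56 came from the sparse replicate 3, on which LHCB4.1 and PSAN had no value. AT1G71810 stood at 1.79 and 1.87 at 1DBP, at 3.45, 1.90, 5.87 and 3.15 at 1DPP, at 4.0, 3.63 and 3.30 at 3DPP and at 4.83 and 5.40 at 8DPP, with 1DPP arrays both above and below the later groups.

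Not all green tissue genes shared this course. Of the 5 in a list of green tissue genes that were measured, LHCB4.1 and PSAN were members and the other 3 were lower at 8DPP than at 1DBP. LHB1B2, of the main light-harvesting complex, went from 6.39 ± 0.75 (SD, n = 2) at 1DBP to 8.84 ± 0.76 (n = 3) at 3DPP and 5.54 ± 0.04 (n = 2) at 8DPP. ATPC1, of the chloroplast ATP synthase, differed by -0.94. PORB, an enzyme of chlorophyll synthesis, went from 4.66 ± 0.24 (n = 2) at 1DBP to 6.52 ± 0.78 (n = 3) at 3DPP. At 8DPP it stood at 0.81 ± 0.33 (n = 2).

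The other named members are given by their differences between 8DPP and 1DBP. The last step held most of it in AT5G54940, a SUI1-type translation initiation factor (2.84), AT4G31330 (2.82), the alanine aminotransferase AlaAT1 (2.71), AT4G19880, of the glutathione S-transferase family (2.66), the FRIGIDA-like AT5G48385 (2.64), AT4G28025 (2.42), AT2G20820 (2.40), AT1G70420 (2.39), AT1G05340, a small cysteine-rich membrane protein of stress responses (2.36), AT1G25550, a MYB-like transcription factor (2.23), and AT1G31220, of purine synthesis (2.18). AT1G50450, of the saccharopine dehydrogenase family (2.26), AT1G79510 (2.24) and the peptide hormone gene RALFL15 (2.12) had their largest step to 3DPP. AT1G76600 (2.26) and AT3G21080 (2.26) had it to 1DPP.

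For a few of these the arrays of a group disagreed. AT1G62000, with a difference of 2.44, ranged from -1.72 to 1.56 at 1DPP and had an 8DPP mean of 1.16 ± 1.68 (SD, n = 2). AT1G26380, a berberine-bridge-type oxidase with a difference of 2.27, had an 8DPP mean of 1.19 ± 3.98 (SD, n = 2) and was the only named probe whose 8DPP and 1DBP arrays overlapped. AT3G43540 stood at 1.15 ± 3.06 (n = 3) and AT3G21080 at 0.59 ± 2.38 (n = 2) at 8DPP. For AT3G43540 replicates 1 and 2 read -0.56 and -0.67, under its 3DPP mean of 0.09, and the sparse replicate 3 read 4.68. At 8DPP AlaAT1 read -0.78 and -0.45 on replicates 1 and 2 and 1.66 on replicate 3. AT1G76600 read -5.25 and -5.17 on replicates 1 and 2 and -3.83 on replicate 3. The sparse array thus raised the 8DPP means of both genes. UBC35, a ubiquitin-conjugating enzyme with a difference of 2.03, stood at 1.19 ± 1.69 (n = 3), and its other probe differed by 0.10.

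Markers of pistil, pollen and seed were few on the array. INO, an ovule gene, stood at 3.61 ± 0.48 (SD, n = 2) at 1DBP, 3.06 ± 0.20 (n = 4) at 1DPP and 3.19 ± 0.55 (n = 3) at 3DPP and had no value at 8DPP, and the carpel gene SPT went from 2.26 ± 0.21 (n = 2) to -0.01 ± 0.82 (n = 2) at 8DPP. BAN, of the seed coat, was at -0.57 ± 0.10 (n = 2) at 1DBP and 4.73 ± 0.95 (n = 3) at 3DPP, with 2.40 ± 4.34 (n = 2) at 8DPP. Of the 8 genes of the pollen list 3 were on the array: VGD1 went from 1.23 ± 0.75 (n = 2) at 1DBP to 3.59 ± 0.40 (n = 4) at 1DPP and 3.62 ± 1.30 (n = 2) at 8DPP, TUA1 differed by 1.16 over the course, and ACT12 stood at 4.18 ± 1.16 (n = 4) at 1DPP and 0.72 ± 0.56 (n = 2) at 8DPP. VGD1 and TUA1 were thus higher at 8DPP than at 1DBP, ACT12 had 1 value at 1DBP and was lower at 8DPP than at 1DPP, and the part of pollen in the set was not tested. None of the 4 measured late embryogenesis genes was a member. LEA4-5, at 2.75, and AT3G15670, at 2.05, were higher at 8DPP than at 1DBP but fell at a step. Their 8DPP arrays disagreed, with means of 1.45 ± 1.94 for LEA4-5 and 1.33 ± 1.32 for AT3G15670 (SD, n = 2 each). The oil body gene OLEO3 differed by -1.45. Of the thioesterase genes of fatty acid synthesis, FaTA differed by -1.29. FATB differed by 0.40 where a probe was measured in both groups. The mean over all its probes with values was 1.40 at 1DBP and 1.13 at 8DPP, so its direction is not settled. The lists for endosperm and for secondary walls had no gene on the array, and those for fruit valve, cell cycle and seed coat had none measured in all 4 groups.

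Across the other 13 organ groups the median level of the members lay between -0.76 in rosette leaf and 0.11 in light hypocotyl, always between the medians at 1DBP and 8DPP. A member had its highest level of all organ groups at 8DPP in 148 cases, or 29.5%, against 6.64% of all features measured. Light hypocotyl held 67 (13.3% against 9.04%) and light root 41 (8.17% against 5.87%), while rosette leaf held 48 (9.56% against 11.9%) and germinating seed 43 (8.57% against 12.3%). The stem held the maximum for 10 members, or 1.99%, against 14.2% of all features. The rule bears on these shares, since it removes every feature that is higher at an earlier stage. The organ RNA was in channel 1 on the stem, cauline and rosette leaf arrays and on 1 light root array and in channel 2 on the others against cultured cells, so dye and organ cannot be told apart in rankings over organs. Light hypocotyl arrays held fewer values and gave a mean for only 305 members.

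The named members shared no single pattern over organs. Silique 8DPP was the highest group for 9 of the 38 probes, AT4G38540, AT1G71810, TET3, AT4G31330, AlaAT1, AT5G48385, AT1G62000, AT2G20820 and AT1G31220, and pistil 1DBP the lowest for 16. The rule favours both counts, since it sets 1DBP lowest and 8DPP highest among its 4 groups. Over all members 1DBP was the lowest organ group for 36.5%, against 4.41% of all features measured. The photosynthesis genes were highest in leaves or light cotyledons: PSAN reached 8.41 ± 0.23 (SD, n = 3) in rosette leaf and LHCB4.1 6.08 ± 0.57 (n = 3) in cauline leaf. Of the peroxidases AT4G37520, AT2G38380, AT5G64100 and AT5G14130 were highest in dark or light root, AT2G37130 in dark hypocotyl, where AT2G37130 probe 2 stood at 6.79 ± 0.12 (n = 2), and PRXR1 in leaves. COR47 stood at 4.18 ± 0.29 (n = 3) and EXLA1 at 2.62 ± 0.22 (n = 3) in stamen, the highest group for each.

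**Figure D3:**
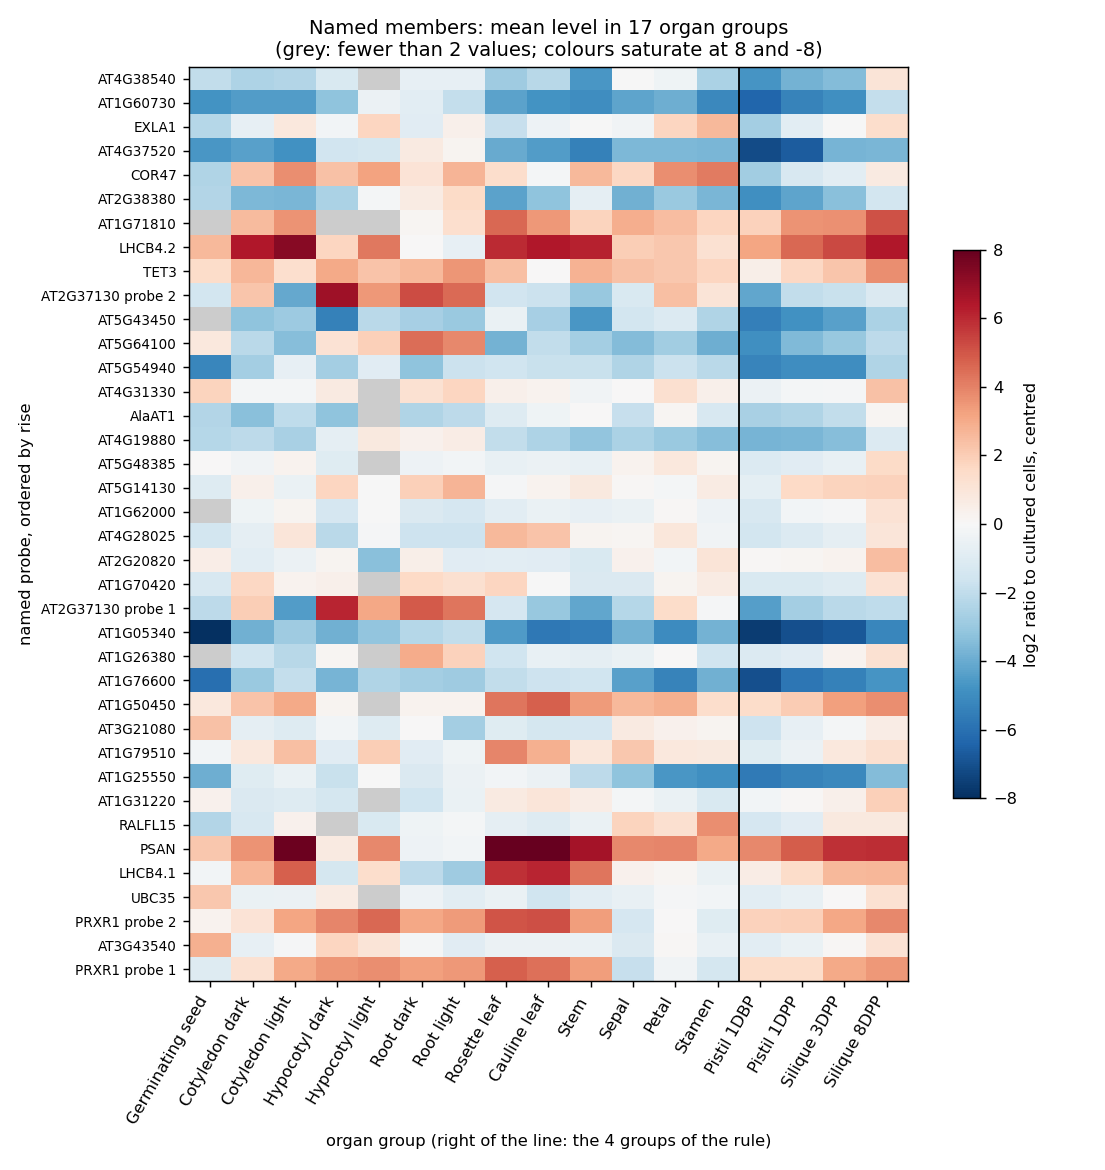
Mean log2 ratio to cultured cells, centred on the array median (colour), of the 38 named probes (vertical axis, ordered by difference between 8DPP and 1DBP) in the 17 organ groups (horizontal axis). Right of the line are the 4 groups of the rule; PSAN, LHCB4.1 and LHCB4.2 are high in leaves and cotyledons, AT2G37130 in dark hypocotyl and roots, AT5G64100 in roots, and TET3 and AT4G38540 are highest at 8DPP.

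None of the group means in the 9 comparisons that follow comes from a pistil or silique array, although those arrays share in the estimate of the spread. Fitted with no pistil or silique arrays, an alternative added after the data were seen, the counts of called members stayed within 1.5 times, and 94 of 99 calls of named members held. A call means a change of 2-fold or more with an adjusted p under 0.05 in limma, fitted over all features. Over the 9 comparisons 375 members were called at least once and 127 never, and 42 were called in 5 or more. The matching shares over all features were not counted, so nothing is read from these counts. The share of members called exceeded the background in 16 of the 18 directions. The members had been chosen for large differences between organs, so nothing particular to the set is read from this.

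Between germinating seed and dark cotyledon the members moved both ways. Of 451 tested, 99 (22%) were higher in germinating seed against 16.9% of all features, and 109 (24.2%) were lower against 23.8%, so the share that was lower lay near the background. AT1G05340 was at the lowest ratio the table records on both germinating seed arrays with a value, at least 142-fold lower than in dark cotyledon (adjusted p = 4.6e-16). COR47 fell by 4.66 ± 0.25 log2 (SE, adjusted p = 5.8e-16), from 2.25 ± 0.01 (SD, n = 3) in dark cotyledon to -2.41 ± 0.34 (n = 3) in germinating seed. The peroxidase AT2G37130 was lower by both probes, AT2G37130 probe 1 at -4.10 ± 0.56 (3.2e-07) and AT2G37130 probe 2 at -3.71 ± 0.51 (3.6e-07). LHCB4.2 was lower too, at -3.79 ± 1.22 (0.011). AT1G76600 stood at -3.09 ± 0.43 (3.7e-07). AT3G43540, at 3.52 ± 0.71 (1.3e-04), and AT3G21080, at 3.06 ± 0.95 (0.0092), were higher in germinating seed. Without centring the split among members turned to 138 higher and 73 lower, as the median of all features moved from -0.15 to 0.46. After scaling the arrays to a common spread AT1G76600 and AT3G21080 lost their calls, at adjusted p = 0.083 and 0.064.

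Between dark cotyledon and dark hypocotyl 8 named probes were called higher in cotyledon and 8 lower. Of 469 members 56 (11.9%) were higher in cotyledon against 9.99% of all features, and 59 (12.6%) lower against 5.92%. LHCB4.1 was higher by 4.06 ± 0.29 log2 (SE, adjusted p = 6.4e-12) and PSAN by 2.85 ± 0.38 (1.9e-06). The peroxidases AT2G37130, AT5G64100, PRXR1 and AT4G37520 were lower in cotyledon: AT2G37130 probe 2 at -4.55 ± 0.57 (6.0e-07), AT2G37130 probe 1 at -4.09 ± 0.62 (1.5e-05), AT5G64100 at -3.31 ± 0.57 (8.4e-05), PRXR1 probe 2 at -2.81 ± 0.33 (1.8e-07) and AT4G37520 at -2.81 ± 0.27 (4.2e-09). LHCB4.2, at 4.65 ± 1.37 (0.015), lost its call without either hypocotyl array (0.11 without replicate 1, 0.086 without replicate 2). Leaving out dark hypocotyl replicate 1 or 2 took the count of called members from 115 to 65 or 68, and scaling gave 30 higher and 58 lower.

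Between dark root and dark hypocotyl 7 named probes were called. Of 467 members 30 (6.42%) were higher in root against 5.30% of all features and 16 (3.43%) lower against 1.88%. The peroxidases AT5G64100, at 3.31 ± 0.62 log2 (SE, adjusted p = 8.7e-04), AT4G37520, at 2.27 ± 0.29 (5.6e-06), and AT2G38380, at 3.21 ± 0.74 (0.0053), were higher in root, as was the oxygenase AT5G43450 at 2.76 ± 0.46 (2.5e-04). AT2G38380 lost its call without dark hypocotyl replicate 2 (0.06). AT1G60730, at 2.34 ± 0.60 (0.012), lost it without any of the 4 arrays (0.064 to 0.1), AT1G05340, at 1.57 ± 0.41 (0.014), without dark root replicate 1 (0.15) or dark hypocotyl replicate 1 (0.079) or 2 (0.11), and COR47, at -1.30 ± 0.31 (0.0074), without dark root replicate 2 (0.093) or dark hypocotyl replicate 1 (0.062) or 2 (0.059). The count of 46 called members fell to 24 without dark root replicate 2, to 14 and 24 without dark hypocotyl replicates 1 and 2, and to 18 after scaling, which ended the calls of AT1G60730 (0.11), AT1G05340 (0.5) and COR47 (0.33). Fitted on the 4 arrays alone, limma called 0 members, with 141 at 2-fold and an unadjusted p under 0.05.

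The stem fell below the leaves for many members. Of 490 tested, 98 (20%) were lower in stem against 8.58% of all features, and 35 (7.14%) higher against 7.93%. AT5G43450 fell by 3.08 ± 0.33 log2 (SE, adjusted p = 2.8e-08), AT1G79510 by 2.46 ± 0.34 (1.9e-06), AT1G71810, the plastoglobule kinase, by 2.26 ± 0.48 (7.8e-04), AT4G28025 by 2.23 ± 0.29 (5.6e-07) and AT1G70420 by 2.01 ± 0.34 (3.8e-05). The peroxidase AT2G38380 was higher in stem by 3.00 ± 0.52 (4.7e-05), at -0.75 ± 0.32 (SD, n = 3) against -3.24 ± 0.27 (n = 3) in cauline and -4.27 ± 0.29 (n = 3) in rosette leaf. COR47 was higher by 1.98 ± 0.22 (4.0e-08). AT4G38540, at -2.14 ± 0.65 (0.016), lost its call without stem replicate 2 (0.12). The count of called members, 133, ran from 114 to 139 with single arrays left out.

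Cauline and rosette leaf differed in fewer members. Of 490 tested, 17 (3.47%) were higher in cauline leaf against 1.64% of all features and 30 (6.12%) lower against 2.53%. AT5G43450 fell by 2.13 ± 0.38 log2 (SE, adjusted p = 5.7e-04), AT1G70420 by 1.72 ± 0.39 (0.0069) and COR47 by 1.52 ± 0.26 (2.4e-04), and EXLA1 was higher by 1.46 ± 0.31 (0.0038). TET3, at -2.34 ± 0.67 (0.037), stood at -0.67 without cauline leaf replicate 2 (0.46) and lost its call without any rosette leaf array (0.067 to 0.13). AT5G64100, at 1.85 ± 0.51 (0.028), lost it without cauline leaf replicate 1 (0.11) or rosette leaf replicate 1 (0.90 log2, 0.34), and AT1G05340, at -1.21 ± 0.34 (0.031), without cauline leaf replicate 2 (0.15) or rosette leaf replicates 1 (0.13) or 3 (0.096). The count of 47 fell to 26 without cauline leaf replicate 2 and to 28 without rosette leaf replicate 1. Scaling ended the calls of TET3 (0.076) and AT5G64100 (0.063), as did the fit with no pistil or silique arrays (0.082 and 0.059), and no centring that of AT1G05340 (0.077). On these 6 arrays alone limma called 0 members, with 96 at 2-fold and an unadjusted p under 0.05.

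In the flower, stamen was set against the mean of petal and sepal. Of 480 members 29 (6.04%) were higher in stamen against 5.14% of all features, and 33 (6.88%) lower against 2.34%. EXLA1 was higher by 1.91 ± 0.28 log2 (SE, adjusted p = 8.6e-06) and COR47 by 1.52 ± 0.23 (1.4e-05). AT4G38540, at -2.34 ± 0.68 (0.024), AT1G50450, at -1.31 ± 0.39 (0.031), and AT5G43450, at -1.11 ± 0.34 (0.033), were lower and lost their calls when single arrays were left out: AT4G38540 without sepal replicate 2 (0.14) or stamen replicates 1 or 2 (0.1 each), AT1G50450 in 5 of 8 such fits (0.063 to 0.13) and AT5G43450 in 5 (0.068 to 0.14), both without either sepal array, petal replicate 3 or stamen replicate 1, AT1G50450 also without stamen replicate 3 and AT5G43450 also without stamen replicate 2. The count of 62 fell to 40 without stamen replicate 1 and to 32 after scaling, which ended these 3 calls (0.067, 0.13 and 0.071). AT5G43450 also missed the threshold with no pistil or silique arrays (0.075), and without centring the split was 20 higher and 47 lower.

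Between petal and sepal 6 named probes were called higher in petal and 2 lower. Of 481 members 37 (7.69%) were higher in petal against 5.24% of all features, and 24 (4.99%) lower against 2.39%. AT2G37130 probe 1 was higher by 3.77 ± 0.62 log2 (SE, adjusted p = 1.1e-04) and AT2G37130 probe 2 by 3.64 ± 0.57 (5.4e-05), COR47 by 2.04 ± 0.28 (9.9e-06) and EXLA1 by 1.98 ± 0.35 (2.5e-04). The transcription factor gene AT1G25550 fell by 1.39 ± 0.28 (9.3e-04). PRXR1 probe 1, at 1.53 ± 0.38 (0.0094), and PRXR1 probe 2, at 1.42 ± 0.33 (0.0052), lost their calls without sepal replicate 1 (0.081 and 0.054) or 2 (0.1 and 0.076), and AT1G05340, at -1.27 ± 0.38 (0.029), without petal replicates 1 (0.072) or 2 (0.065) or sepal replicates 1 (0.19) or 2 (0.18). The count of 61 fell to 32 and 27 without sepal replicates 1 and 2, and scaling gave 29, with 14 higher and 15 lower and no call for PRXR1 (0.38 and 0.32). On the 5 arrays alone limma called 0 members, with 99 at 2-fold and an unadjusted p under 0.05.

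On the arrays that set light cotyledon directly against dark cotyledon, 72 of 486 members (14.8%) were higher in light against 6.57% of all features, and 48 (9.88%) lower against 4.86%. Both probes of the peroxidase AT2G37130 were far lower in light: the arrays read -5.37 and -5.01 for AT2G37130 probe 1 and -4.86 and -6.01 for AT2G37130 probe 2, with means of -5.19 ± 0.48 log2 (SE, adjusted p = 1.1e-09) and -5.43 ± 0.44 (7.0e-11). The peroxidase PRXR1 went the other way, with PRXR1 probe 2 at 2.80 and 1.29 and a mean of 2.05 ± 0.26 (3.7e-07). PSAN, at 2.95 ± 0.30 (6.2e-09), and LHCB4.1, at 2.13 ± 0.23 (1.6e-08), were higher in light, but the direction of the ratios was read from genes of this kind, so this is no finding. AT5G14130, at -4.86 and -0.67 on the 2 arrays and -2.77 ± 0.61 in the mean (0.0016), lost its call without replicate 1 (0.8). RALFL15, at -2.11 ± 0.71 (0.041), lost it without replicate 1 (0.24) or 2 (0.34), and AT1G70420, at -2.02 ± 0.34 (5.4e-05), without replicate 2 (0.082).

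Of the 98 members lower in stem than in leaves, 36 (36.7%) were also called higher in light cotyledons, which is 50% of the 72 called there. Among all features the same overlap was 23.7% of those lower in stem and 30.4% of those higher in light cotyledons. The count of 120 fell to 72 without replicate 1 and to 65 without replicate 2 of the light cotyledon arrays. Scaling to a common spread gave 253 called members, with 116 higher and 137 lower, and without centring 53 were higher and 59 lower. On the 2 arrays alone limma called 0 members, with 165 at 2-fold and an unadjusted p under 0.05.

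In root, light against dark called 22 of 460 members (4.78%) higher against 4.84% of all features, and 31 (6.74%) lower against 4.41%. COR47 was higher in light at 1.81 and 2.38 on the 2 arrays, a mean of 2.09 ± 0.22 log2 (SE, adjusted p = 6.9e-08). EXLA1, at 1.34 ± 0.27 (8.9e-04), and AT5G54940, at 1.13 ± 0.25 (0.0021), were higher too and lost their calls without replicate 2 (0.15 and 0.39), and no named member was called lower. Without centring AT5G54940 stood at 0.94, under 2-fold. The count of 53 fell to 21 without replicate 2, scaling gave 185, and without centring the split was 16 higher and 43 lower.

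**Figure D4:**
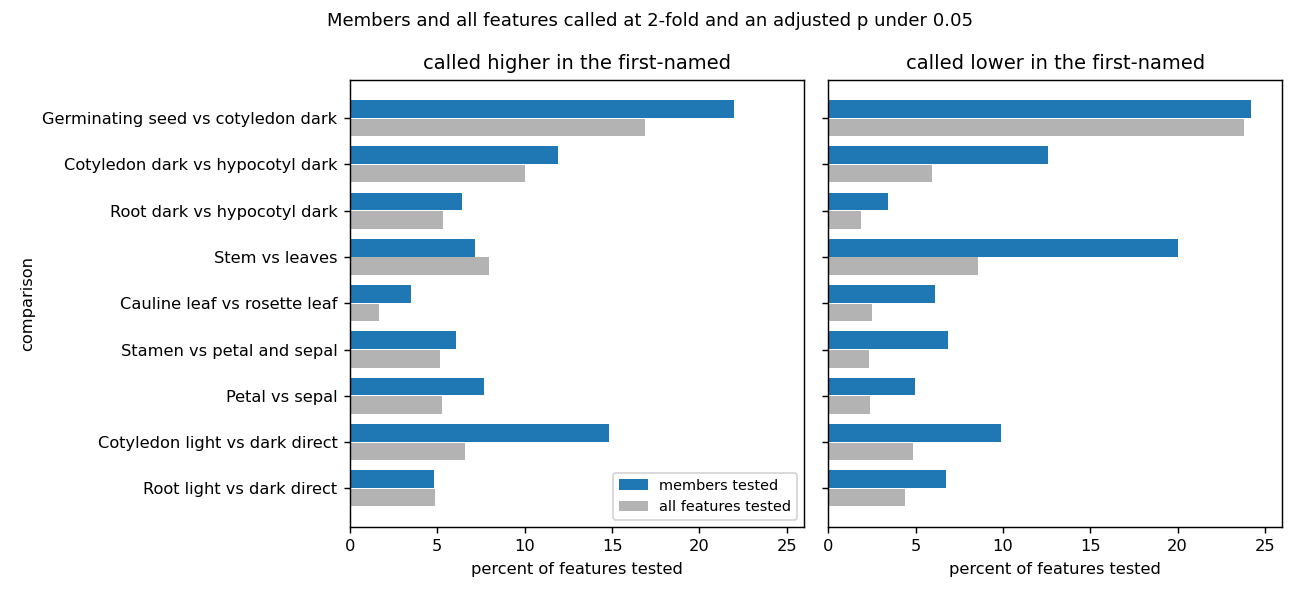
Share of features tested that were called (horizontal axis, percent) in the 9 comparisons (vertical axis), higher in the first-named group at left and lower at right, for members (blue) and all features (grey). The members' share exceeds the background in 16 of 18 bars, among them stem against leaves, where 20% were called lower against 8.58%, and stamen, where 6.88% were called lower against 2.34%.

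**Figure D5:**
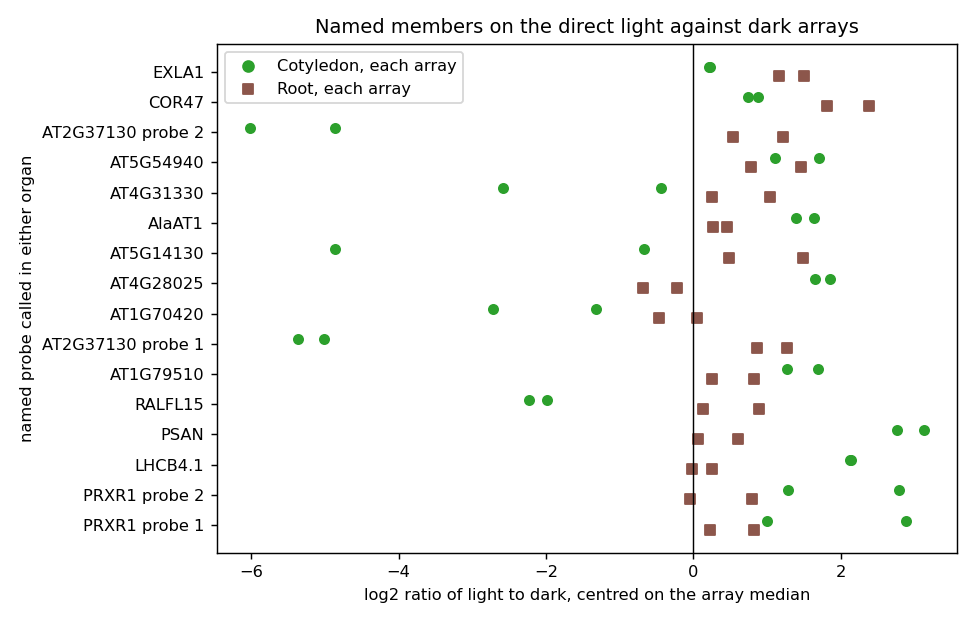
Log2 ratio of light to dark, centred on the array median (horizontal axis), on each direct array of cotyledon (green circles) and root (brown squares) for the named probes called in either organ (vertical axis). Both probes of AT2G37130 lie below -4 in cotyledon and above 0 in root, and COR47 is higher in root than in cotyledon.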

How the data were processed

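Two-colour arrays of total RNA were used as the authors deposited them, as a log2 ratio for each spot. The sources used here do not give the scanner, background correction or normalization behind these values. The lowest deposited ratio is 0.001. Spots of the 3 controls, 17 each, were averaged, which left 27600 features (probes, where named). The median of every array was subtracted from its values. Gene names are those of the platform annotation, with 1810 of 1813 named features matched to RefSeq (TAIR10.1, names only), and features of genomic clones were left unnamed. No sequence is printed, since none was used here.

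Comparisons were fitted over all 51 arrays with 1 mean per group in limma 3.58.1 (R 4.3.3, moderated variances), two-sided, with Benjamini-Hochberg adjustment over all features tested, each with at least 2 values in every group. The script was tested on simulated data. All 38 named members are named. Values on every array are given for the 12 with the largest difference, and per comparison up to 8 called named members with the largest change. Members and lists were chosen with earlier results of these data known, and the peroxidase list and the test of the difference between light responses were added after the files were seen. Lists held seed storage, late embryogenesis, oil synthesis, flavonoid and seed coat, endosperm, fruit valve, ovule and carpel, pollen, green tissue, cell cycle, secondary wall and peroxidase genes. Alternatives were no centring, scaling to a common median absolute value, the replicate number as a block, a fit on the arrays compared alone, a value on every array, leaving out each array and, added after the data were seen, a fit with no pistil or silique arrays.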

Additional observations from a re-analysis of the deposited data

Results flagged for a closer look

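On the 4 arrays of pistil 1DPP, 1 array stood apart from the others for 3 of 37 named probes with a value on each, by Dixon's criterion, which picks out about 1 group in 20 by chance. AT4G37520 read -7.10 on replicate 2 and between -6.56 and -6.46 on the others. AT1G76600 read -6.09 on replicate 3 and between -5.70 and -5.69 on the others. UBC35 read 0.23 on replicate 1 and between -0.98 and -0.80 on the others.

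The response to light differed between cotyledon and root, by limma's test of the difference over all features, for 9 of the 14 named probes called in either organ, photosynthesis genes left out because the direction was read from them. Of all features called in either organ 29.3% passed the same test, and of all members called in either organ 46.3% did. Among the 9 probes AT2G37130 and PRXR1 each count with 2 probes. Cotyledon minus root came to -6.26 ± 0.68 log2 (SE, adjusted p = 1.3e-07) for AT2G37130 probe 1 and -6.31 ± 0.62 (1.8e-08) for AT2G37130 probe 2, with responses of 1.07 and 0.88 in root. Against cultured cells AT2G37130 probe 2 stood at 4.51 ± 0.66 (SD, n = 2) in light and 5.21 ± 0.32 (n = 2) in dark root, opposite to the sign on the direct root arrays. It was also negative for AT5G14130 at -3.76 ± 0.87 (0.0055), AT4G31330 at -2.16 ± 0.56 (0.014), AT1G70420 at -1.81 ± 0.48 (0.016) and COR47 at -1.28 ± 0.31 (0.0088). It was positive for AT4G28025 at 2.20 ± 0.41 (4.4e-04), PRXR1 probe 2 at 1.67 ± 0.36 (0.0028) and PRXR1 probe 1 at 1.41 ± 0.42 (0.036). Each organ has 2 such arrays, and the cotyledon calls of AT5G14130, AT4G31330, AT1G70420 and PRXR1 probe 1 were lost without 1 of them.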

How the results depend on the processing

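The number of members was 772 without centring, 129 of 5357 features with a value on all 12 arrays, and 165 to 675 with single arrays left out. Fitted on the arrays compared alone, called members came to 0 for root against hypocotyl, cauline against rosette leaf, petal against sepal and light cotyledons, with 141, 96, 99 and 165 at 2-fold and an unadjusted p under 0.05 by limma. After scaling they came to 18 for root against hypocotyl, 32 for stamen, 29 for petal against sepal, 253 for light cotyledons and 185 for light roots, and the cause was not tested. With single arrays left out they ran from 175 to 190 for germinating seed, 65 to 106 for cotyledon against hypocotyl, 14 to 33 for root against hypocotyl, 114 to 139 for stem, 26 to 59 for cauline against rosette leaf, 40 to 67 for stamen, 27 to 64 for petal against sepal, 65 to 72 for light cotyledons and 21 to 54 for light roots, where a lone array is taken to vary like the other groups. Of 99 calls of named members none changed sign under any alternative, 61 held in every fit without an array, and 93 held without centring, 77 after scaling, 96 with the replicate block, 94 with no pistil or silique arrays and 53 on the arrays compared alone. Without centring the median of all features moved by over 0.1 in 6 comparisons, to 0.46 for germinating seed, 0.03 for cotyledon against hypocotyl, 0.10 for cauline against rosette leaf, -0.21 for stamen, -0.20 for light cotyledons and -0.23 for light roots. With the replicate block RALFL15 lost its call in light cotyledons (0.082), and the called members came to 207 for germinating seed, 131 for stem and 110 for light cotyledons. The replicate numbers showed no sign of pairing the samples, although pairing limited to some organs could be missed. Deviations from the group means correlated at a median of 0.002 over 415 pairs of arrays with the same number. Over 817 pairs with different numbers the median was -0.001, across the 3176 features with a value on every array. Signal over background was not analysed here.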
